A study of Homo sapiens with 6 samples.

Results

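The genes described here are the 70 gene symbols, of 26255 in the table, whose RNA was clearly higher in MDA-MB-231 cells carrying a hairpin against GPR81 than in cells carrying a control hairpin. They were chosen by their measured levels. Each had at least 1 FPKM (fragments counted per length of transcript and per size of library) in all 3 shGPR81 libraries, its lowest shGPR81 value lay above its highest shNT value, and the ratio of the group means was 1.8 or more. Short RNAs were left out, as were 9 named genes. Without these exclusions 8 more symbols, of which 1 is a short RNA and 7 are on the list of named genes, would have been chosen. Among the 11329 remaining symbols at 1 FPKM or more in every shGPR81 library, the members made up 0.618%. Their higher level in shGPR81 is therefore the way they were picked and not a result, and no test is given for it. What follows says which genes they are, what they are known to do, how much RNA they gave in each library and where they lie.

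MDA-MB-231 is a human breast cancer line that lacks estrogen receptor, progesterone receptor and amplified HER2. Lentiviral vectors put a short hairpin RNA into these cells, either a non-targeting one (shNT) or one directed at GPR81 (shGPR81), and stable lines were kept by puromycin selection. Polyadenylated RNA from 3 libraries of each group was sequenced, and both groups therefore share the vector, the selection and the parental line. The study made a pair of shGPR81 lines with different hairpins, the sources used here do not say which one was sequenced, and nothing says that the 3 libraries of a group came from separate cultures. An effect of a single hairpin, or of a single selected line, thus cannot be told apart from an effect of lower GPR81.

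GPR81, whose gene is HCAR1, is a receptor on the cell surface that binds lactate. It acts through an inhibitory G protein that lowers cyclic AMP, and it is best known from fat cells, where lactate acting on it restrains the breakdown of stored fat. Tumor cells that ferment glucose release much lactate, which is why the receptor has been studied in breast cancer. The level of HCAR1 itself was 0.968, 1.02 and 1.36 FPKM in the shNT libraries and 0.978, 0.891 and 0.396 FPKM in the shGPR81 libraries. The group means were 1.12 ± 0.212 FPKM in shNT and 0.755 ± 0.314 FPKM in shGPR81 (SD, n = 3). The groups overlapped, since 2 of the libraries labelled shGPR81 lay within or next to the range of shNT and only the third was far below it. These are low levels. By RT-qPCR and western blotting, measured apart from these libraries, the study reported significantly less GPR81 in both of its hairpin lines than in control cells. The labels give the groups, and the directions below are for the libraries labelled shGPR81.

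Among markers of the line, VIM, MSN, CD44 and AXL were abundant, and ESR1, PGR and CDH1 were listed at 0 in all 6 libraries. CLDN4 at a mean of 33.4 FPKM and CLDN7 at 17.5 FPKM in shNT were not near 0, although their lack is often used to describe the line. The 7 leukocyte markers summed to 79.3 to 103 FPKM in shNT and 112 to 131 FPKM in shGPR81, nearly all of it CD68, with 5 of 7 below 1 FPKM in every library and CD3E and SPI1 at 0. The 7 fibroblast markers summed to 0.951 to 1.19 FPKM and 0.503 to 0.734 FPKM, with COL1A2, DCN, LUM and POSTN at 0. Endothelial markers (5 genes) summed to 0.865 to 1.03 FPKM in shNT and 0.844 to 1.23 FPKM in shGPR81, with CDH5 at 0, and the 4 adipocyte markers reached at most 0.132 FPKM with ADIPOQ and LEP at 0. Of 6 neuron markers, 5 were below 1 FPKM in every library, STMN2 was at 0, and TUBB3 made up nearly all of the sum of 39.1 to 56.2 FPKM in shNT and 39.2 to 44.8 FPKM in shGPR81. The steps between low FPKM values gave estimates of 11993689 to 12817548 reads per library (medians over genes). Quartiles over genes reached from 8346495 to 13997842. These depths are rough, since they are read back from normalized values and not counted. Factors that would bring the 6 libraries to a common median ran from 0.992 to 1.003.

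Most members were genes of low level. The median shGPR81 mean of the 70 was 2.38 FPKM, against 12.7 FPKM over the 11329 symbols at 1 FPKM or more in every shGPR81 library. In shNT, 31 members averaged below 1 FPKM, and 23 were below 1 FPKM in every shNT library. At the other end, 19 members averaged 5 FPKM or more in shGPR81 and 9 averaged 10 FPKM or more. The ratio of shGPR81 to shNT ran from 1.81 to 5.03 with a median of 2.07, and it was 2 or more in 43 members and 3 or more in 4. Over the 11329 symbols the median log2 ratio was 0.01. In 48 members the lowest shGPR81 value was more than 1.5 times the highest shNT value, while in 2 it was under 1.1 times that value. The median coefficient of variation over members was 15.6% in shNT and 9.15% in shGPR81, and the limit on overlap favors genes with little spread.

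**Figure D1:**
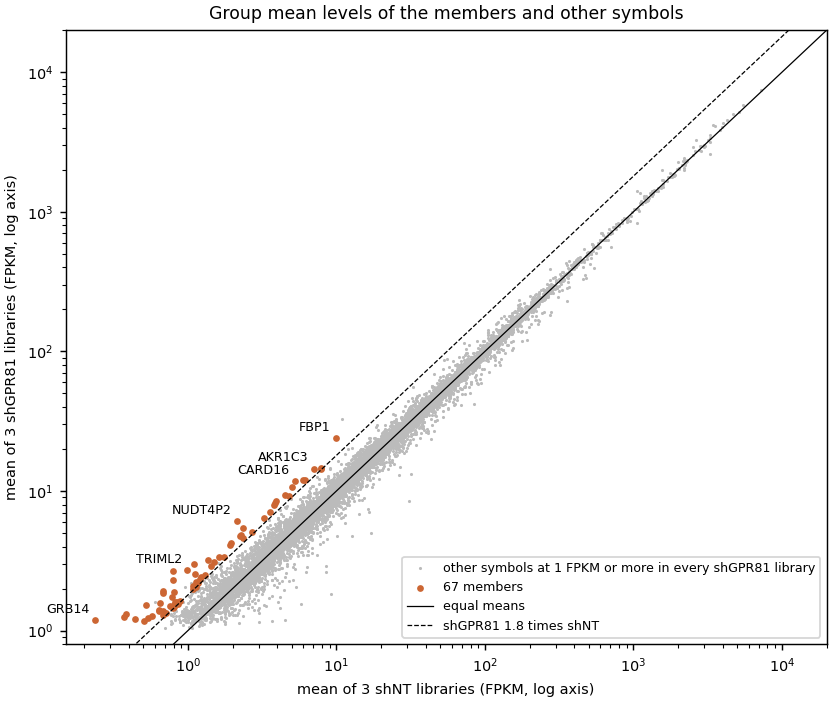
Mean FPKM of the 3 shGPR81 libraries against the mean of the 3 shNT libraries, both on log axes, for 67 members (orange) and the other symbols at 1 FPKM or more in every shGPR81 library (grey), with lines at equal means and at a ratio of 1.8. The members lie on or above the dashed line by choice, mostly at the low end of the scale, and FBP1 lies well above the others in level.

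Sorted by what their products are known to do, the members were 11 metabolic enzymes, 9 signalling proteins, 9 nuclear proteins, 8 receptors and surface proteins, 7 secreted proteins, 7 cytoskeletal proteins, 7 channels, transporters and proton pump subunits, 2 proteases, 2 other proteins and 8 transcripts without a known protein of their own. The sorting was done by hand after the members were known. It serves only to order the description, and no class was compared with chance. The class of enzymes also holds CA8, a carbonic anhydrase relative without enzymatic activity. Values after ± are SDs over the 3 libraries of a group.

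**Figure D2:**
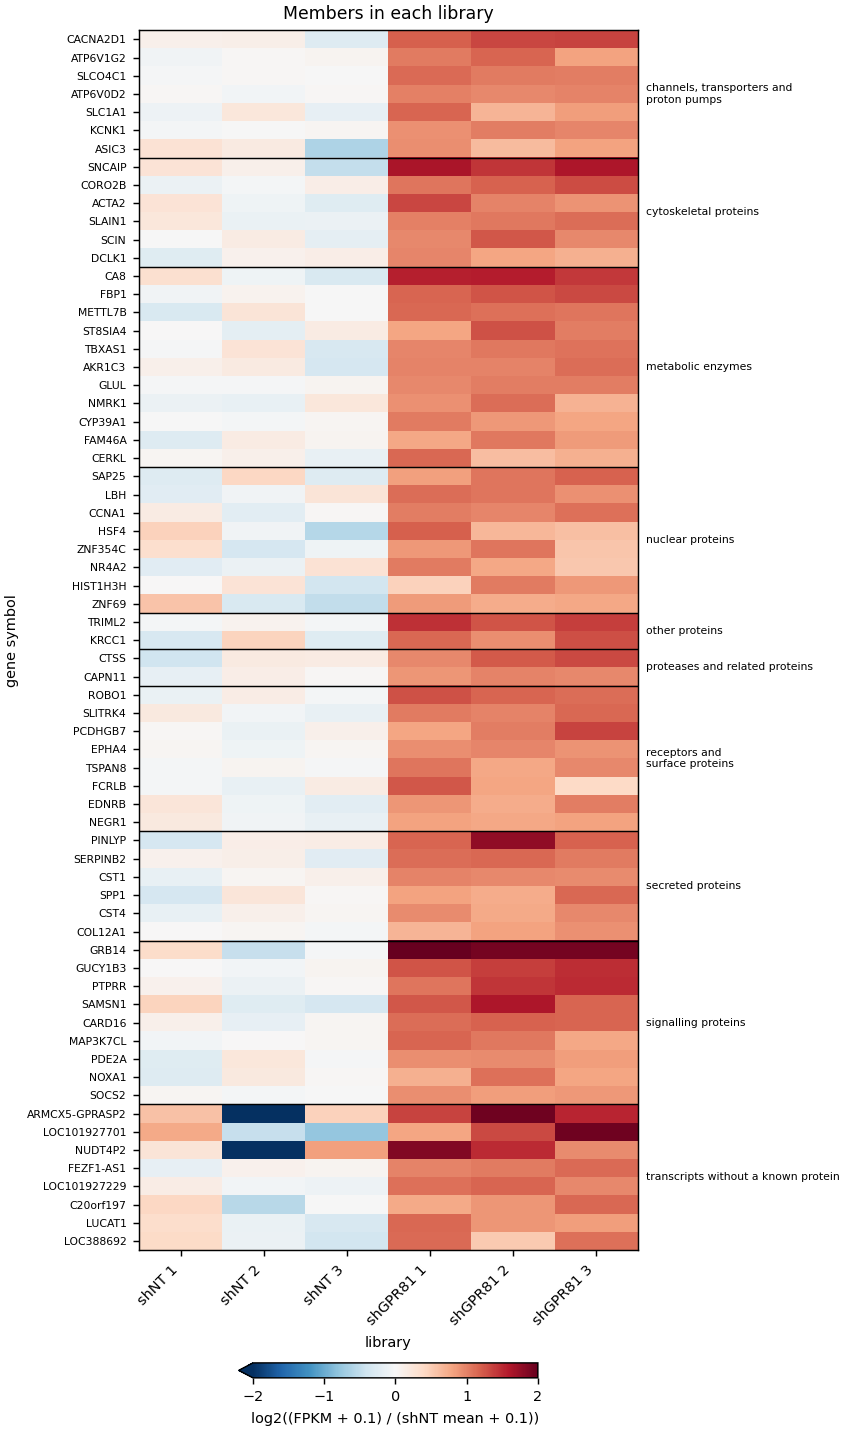
Each row is one of 67 members and each column a library, and the color is log2 of (FPKM + 0.1) over (shNT mean + 0.1), with rows grouped by function. The shGPR81 columns are higher in all rows by the way members were chosen. Within shNT, ARMCX5-GPRASP2 and NUDT4P2 stand out with values of 0 and 0.0181 FPKM in shNT 2.

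The secreted products included a pair of salivary-type cystatins, inhibitors of cysteine proteases. CST4 (cystatin S) measured 7.14, 8.44 and 8.09 FPKM in the shNT libraries and 15.3, 13.4 and 15.4 FPKM in the shGPR81 libraries. CST1 (cystatin SN) measured 5.51, 6.28 and 6.56 FPKM in the shNT libraries and 12.3, 12.05 and 11.9 FPKM in the shGPR81 libraries. The ratios were 1.86 and 1.97. These genes are close copies, and 13.9% of the 75-base windows of the longest CST1 and CST4 transcripts occur in another cystatin, so part of their reads could be assigned to either. CST2, the third copy, was at 21.0 FPKM in shNT and 24.8 FPKM in shGPR81 with overlap, and the widely expressed CST3 at 262 and 260.5 FPKM. CST7, an inhibitor known from immune cells, was lower in shGPR81, with 7.03, 7.84 and 7.32 FPKM in the shNT libraries and 3.94, 3.32 and 3.23 FPKM in the shGPR81 libraries.

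SERPINB2 encodes plasminogen activator inhibitor 2. It had 4.18, 4.24 and 3.32 FPKM in the shNT libraries and 8.60, 8.83 and 8.18 FPKM in the shGPR81 libraries, and the groups were 3.91 ± 0.514 FPKM in shNT and 8.54 ± 0.330 FPKM in shGPR81 (SD, n = 3). The neighbouring family member SERPINB7 stayed below 1 FPKM in group mean but was also higher without overlap (ratio 1.77), whereas SERPINB9, an inhibitor of granzyme B, was lower, at 5.13, 4.92 and 4.39 FPKM in the shNT libraries and 2.25, 2.21 and 2.33 FPKM in the shGPR81 libraries. Of the SERPINB2 windows, 22.8% also fall in an unnamed protein-coding model that overlaps it. PINLYP, a protein with the LY6/PLAUR fold, had the fifth highest ratio of all members at 2.95, with 0.393, 0.578 and 0.590 FPKM in the shNT libraries and 1.29, 2.02 and 1.30 FPKM in the shGPR81 libraries. SPP1 encodes osteopontin, a matrix protein that binds integrins and CD44, and was at 1.37, 2.09 and 1.79 FPKM in the shNT libraries and 3.13, 2.98 and 3.99 FPKM in the shGPR81 libraries. Of its receptors, CD44 (ratio 0.871) and ITGB3 (0.743) were lower without overlap, and ITGAV (0.935) overlapped. COL12A1, a collagen associated with fibrils, was the member closest to the limit on the ratio, at 1.13, 1.17 and 1.09 FPKM in the shNT libraries and 1.86, 2.05 and 2.23 FPKM in the shGPR81 libraries and a ratio of 1.81.

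The proteases were the lysosomal cathepsin S (CTSS), known for its part in antigen processing, and the calpain CAPN11, a calcium-dependent protease known from testis. CTSS measured 0.465, 0.744 and 0.734 FPKM in the shNT libraries and 1.35, 1.65 and 1.76 FPKM in the shGPR81 libraries, a ratio of 2.45. CAPN11 averaged 3.28 ± 0.347 FPKM in shNT and 6.39 ± 0.220 FPKM in shGPR81 (SD, n = 3). None of the other cysteine cathepsins compared is a member. CTSB, CTSL and CTSK overlapped between groups, CTSC was slightly higher without overlap (1.11), and CTSH and CTSZ were lower without overlap, with ratios of 0.457 and 0.827. For CTSH the values were 14.02, 16.4 and 18.3 FPKM in the shNT libraries and 7.42, 6.71 and 8.10 FPKM in the shGPR81 libraries. CD68, a lysosomal protein of many cell types that is used as a macrophage marker, was also higher (88.9 FPKM in shNT and 118 FPKM in shGPR81). CD14, another marker of monocytes and macrophages, was lower without overlap, with 2.24, 4.29 and 3.62 FPKM in the shNT libraries and 1.74, 1.14 and 1.58 FPKM in the shGPR81 libraries. Their part in the CTSS difference was not tested. In bulk RNA, fewer cells of a type and less RNA per cell cannot be told apart.

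**Figure D3:**
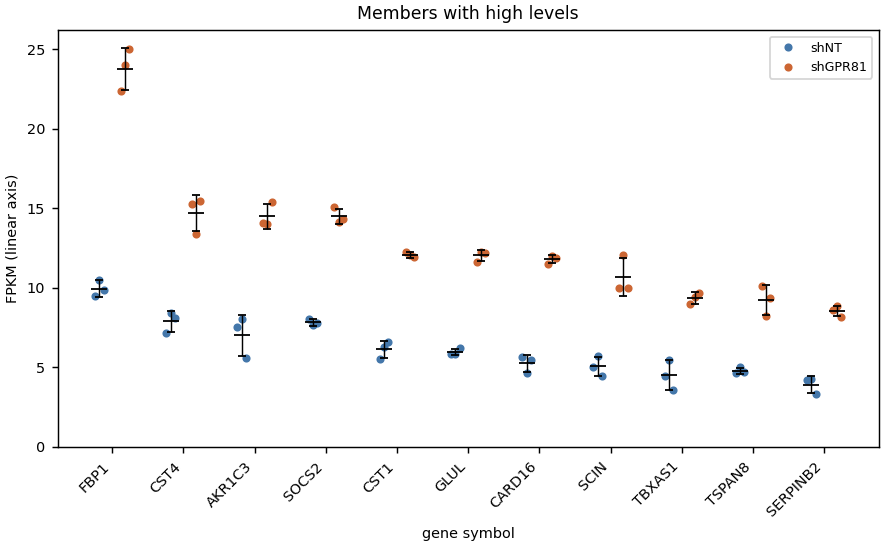
FPKM in each library (dots, linear axis) of 11 members with high shGPR81 means, with the mean and SD of 3 libraries in black. The 3 shGPR81 dots of FBP1 lie above all others, and the next, CST4, AKR1C3 and SOCS2, lie between 13.4 and 15.4 FPKM.

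FBP1, fructose-1,6-bisphosphatase, opened the enzymes (chr9:97365415-97402531). It catalyses the step of gluconeogenesis that runs against phosphofructokinase, and it gave 9.45, 10.5 and 9.88 FPKM in the shNT libraries and 22.4, 24.0 and 24.99 FPKM in the shGPR81 libraries, or 9.94 ± 0.528 FPKM in shNT and 23.8 ± 1.32 FPKM in shGPR81 (SD, n = 3). Of the related genes, FBP2 was near 0, PCK1 and G6PC were listed at 0 in all libraries, and the mitochondrial PCK2 (ratio 1.06) and pyruvate carboxylase PC (1.20) were slightly higher without overlap. The phosphofructokinase genes PFKL, PFKM and PFKP overlapped between groups at ratios of 1.12, 0.993 and 1.02. None of 24 listed glycolysis genes was a member. On a list of 23 genes of cholesterol and fatty acid synthesis, 11 were higher in shGPR81 without overlap, beside 14.1% of the 11329 symbols, and the median log2 ratio was 0.14. The same count for the other lists is given below, and some of them also lie above that share.

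A pair of members handles glutamate. GLUL, glutamine synthetase, which makes glutamine from glutamate and ammonia, was at 5.86, 5.83 and 6.19 FPKM in the shNT libraries and 11.6, 12.3 and 12.2 FPKM in the shGPR81 libraries. SLC1A1, a carrier of glutamate and aspartate into cells, was at 0.698, 0.901 and 0.656 FPKM in the shNT libraries and 1.802, 1.26 and 1.42 FPKM in the shGPR81 libraries. Their ratios were 2.02 and 1.99. A second glutamate carrier, SLC1A3, went the other way, with 12.9, 10.9 and 10.5 FPKM in the shNT libraries and 5.77, 5.95 and 6.06 FPKM in the shGPR81 libraries, and the glutamine and neutral amino acid carrier SLC1A5 had a ratio of 0.826 with overlap. GLUD1, glutamate dehydrogenase, had a ratio of 0.999 with overlap.

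Several enzymes act on lipid mediators and steroids. AKR1C3 reduces steroid ketones and prostaglandins and measured 7.51, 8.01 and 5.56 FPKM in the shNT libraries and 14.1, 14.03 and 15.4 FPKM in the shGPR81 libraries. Its close relatives AKR1C1 and AKR1C2 were below 1 FPKM and AKR1C4 was listed at 0, and 10.3% of its windows occur in them. AKR1C3 was the only member on a list of 21 NRF2 targets and metallothioneins, of which 17 reached 1 FPKM in every library of either group and 8 were higher without overlap, beside 14.1% of the 11329 symbols at 1 FPKM or more in every shGPR81 library. TBXAS1, thromboxane A synthase, was at 4.44, 5.46 and 3.60 FPKM in the shNT libraries and 8.96, 9.45 and 9.68 FPKM in the shGPR81 libraries. The cyclooxygenase gene PTGS1 and the thromboxane receptor gene TBXA2R were below 1 FPKM in group means, PTGS2 was near 1 FPKM in both groups, and the prostaglandin E synthase PTGES was lower, at 199 FPKM in shNT and 149.8 FPKM in shGPR81 without overlap. CYP39A1, a hydroxylase of oxysterols on the way to bile acids, averaged 0.815 ± 0.0271 FPKM in shNT and 1.61 ± 0.152 FPKM in shGPR81. CERKL resembles ceramide kinase and averaged 0.811 ± 0.0781 FPKM in shNT and 1.54 ± 0.333 FPKM in shGPR81.

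The others in the class of enzymes have varied roles. CA8, a carbonic anhydrase relative without enzymatic activity, had the third highest ratio at 3.35, with 0.490, 0.342 and 0.280 FPKM in the shNT libraries and 1.28, 1.29 and 1.16 FPKM in the shGPR81 libraries. ST8SIA4, which builds polysialic acid on surface glycoproteins, had 0.640, 0.544 and 0.730 FPKM in the shNT libraries and 1.17, 1.68 and 1.40 FPKM in the shGPR81 libraries. NMRK1 phosphorylates nicotinamide riboside in NAD synthesis, METTL7B methylates thiols, and FAM46A, now named TENT5A, extends poly(A) tails. Their shGPR81 means were 2.22, 2.54 and 2.09 FPKM, from 1.13, 1.12 and 1.08 FPKM in shNT.

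Among the signalling proteins, GRB14 (chr2:165348927-165477992) had the highest ratio of all, 5.03. This adaptor binds the activated insulin receptor and dampens its signal. The values were 0.333, 0.145 and 0.233 FPKM in the shNT libraries and 1.25, 1.16 and 1.16 FPKM in the shGPR81 libraries, well below 1 FPKM in shNT and just above it in shGPR81. Its relative GRB10 was 21.9 FPKM in shNT and 19.4 FPKM in shGPR81, lower without overlap, and GRB7 was near 0. SOCS2, a suppressor of growth hormone and cytokine receptor signals, was among the most abundant members, at 8.06, 7.66 and 7.78 FPKM in the shNT libraries and 15.0, 14.1 and 14.3 FPKM in the shGPR81 libraries. None of the other SOCS genes SOCS1, SOCS3, SOCS4, SOCS5, SOCS6 and SOCS7 was a member. Their ratios lay between 0.929 (SOCS1) and 1.101 (SOCS5), all with overlap.

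Cyclic GMP signalling was represented by 2 members. GUCY1B3 encodes the beta subunit of soluble guanylate cyclase, the nitric oxide receptor, and measured 0.681, 0.649 and 0.711 FPKM in the shNT libraries and 1.77, 1.93 and 2.06 FPKM in the shGPR81 libraries, a ratio of 2.83. PDE2A, a phosphodiesterase that cGMP stimulates to break down cAMP and cGMP, measured 0.9999, 1.42 and 1.18 FPKM in the shNT libraries and 2.38, 2.40 and 2.22 FPKM in the shGPR81 libraries. PDE5A, which breaks down cGMP alone, met every criterion but the floor of 1 FPKM, with 0.530, 0.625 and 0.459 FPKM in the shNT libraries and 1.001, 0.981 and 0.967 FPKM in the shGPR81 libraries. The cGMP-dependent kinase PRKG1 had a ratio of 1.66, also without overlap. PDE9A, a second phosphodiesterase that acts on cGMP alone, was lower, with 1.75, 1.58 and 1.54 FPKM in the shNT libraries and 0.9502, 0.697 and 1.01 FPKM in the shGPR81 libraries and no overlap. PDE1C, below 1 FPKM in every library, was lower as well (ratio 0.442), while PDE10A (0.969) and PDE11A (0.812) overlapped. Of the other partners, PDE6D (ratio 1.22) and the kinase PRKG2 (1.44, below 1 FPKM) were higher without overlap, and the natriuretic peptide receptor gene NPR2 (1.30) overlapped. These genes were looked up after the members were known. The alpha subunits with which GUCY1B3 pairs were not seen at a comparable level, since GUCY1A3 was listed at 0 in all 6 libraries and GUCY1A2 was near 0. The nitric oxide synthase gene NOS3 was near 0, and NOS1 and NOS2 were listed at 0.

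PTPRR, a tyrosine phosphatase that inactivates MAP kinases, had 0.725, 0.612 and 0.687 FPKM in the shNT libraries and 1.53, 1.98 and 2.09 FPKM in the shGPR81 libraries, a ratio of 2.77. SAMSN1, an adaptor known from B cells, had 1.54, 0.917 and 0.853 FPKM in the shNT libraries and 2.75, 3.59 and 2.58 FPKM in the shGPR81 libraries. CARD16, a decoy of caspase 1 that holds only its interaction domain, had 5.67, 4.66 and 5.43 FPKM in the shNT libraries and 11.5, 11.97 and 11.9 FPKM in the shGPR81 libraries, while CASP1 itself overlapped between groups at 2.92 and 3.92 FPKM. Of the CARD16 windows, 10.4% are shared with CASP1. NOXA1, an activator of NADPH oxidase, and MAP3K7CL, a relative of the C-terminal part of the kinase TAK1, completed the class with ratios of 1.90 and 2.07.

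The receptors and surface proteins included several known from the nervous system. ROBO1, the receptor that SLIT proteins repel axons through, was at 1.24, 1.52 and 1.33 FPKM in the shNT libraries and 3.42, 3.16 and 3.06 FPKM in the shGPR81 libraries. ROBO3 and ROBO4 were higher by less and without overlap, with ratios of 1.23 and 1.37, and the ligand gene SLIT2 overlapped at 7.73 and 7.39 FPKM. EPHA4, a receptor kinase for ephrins, was at 2.43, 2.20 and 2.43 FPKM in the shNT libraries and 4.55, 4.71 and 4.49 FPKM in the shGPR81 libraries. SLITRK4 and NEGR1 are adhesion proteins of neurons, and PCDHGB7 belongs to the gamma protocadherins. Their ratios were 2.30, 1.82 and 2.24. Genes of the gamma protocadherin cluster share their last exons, and 48.2% of the PCDHGB7 windows occur in other genes of the cluster. The best expressed of those, PCDHGC3, had a ratio of 1.08 with overlap. None of 30 listed neuronal and synaptic genes was a member, and 7 of those reached 1 FPKM in every library of either group. That list does not hold SLITRK4 or NEGR1.

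EDNRB, the type B endothelin receptor, was at 3.25, 2.57 and 2.34 FPKM in the shNT libraries and 5.10, 4.61 and 5.64 FPKM in the shGPR81 libraries. EDNRA, the type A receptor, was also higher without overlap but by less (1.15), and the ligand gene EDN1 overlapped. TSPAN8, a tetraspanin of epithelial and tumor cells, was at 4.64, 4.99 and 4.71 FPKM in the shNT libraries and 10.1, 8.25 and 9.36 FPKM in the shGPR81 libraries. FCRLB, an intracellular relative of Fc receptors, varied more among the shGPR81 libraries, with 2.13, 1.53 and 1.15 FPKM after 0.823, 0.748 and 0.963 FPKM in shNT.

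**Figure D4:**
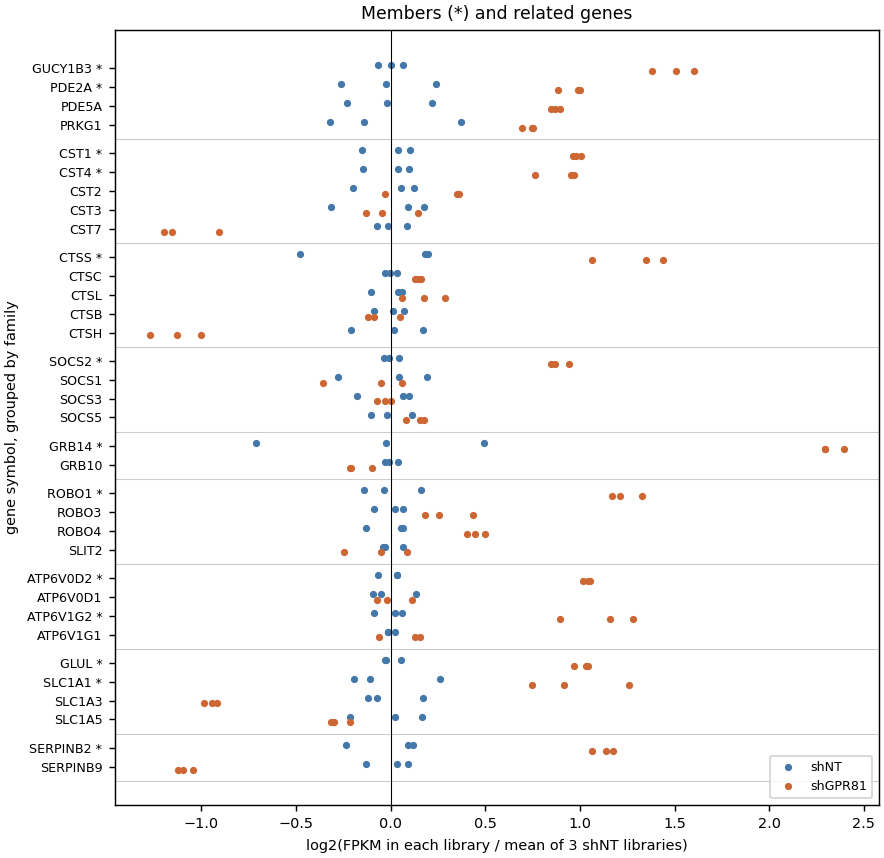
Each dot is a library, placed by log2 of its FPKM over the mean of the 3 shNT libraries, for members (starred) and related genes that are not members. CST7, CTSH, SLC1A3 and SERPINB9 lie to the left in shGPR81 while their starred relatives lie to the right, and SOCS1, SOCS3 and ATP6V0D1 stay around 0.

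Channels and carriers formed a class of 7. CACNA2D1, the alpha2delta subunit that brings calcium channels to the surface, had 0.482, 0.484 and 0.354 FPKM in the shNT libraries and 1.13, 1.26 and 1.27 FPKM in the shGPR81 libraries. KCNK1, a potassium leak channel, had 3.45, 3.55 and 3.67 FPKM in the shNT libraries and 6.76, 7.30 and 7.12 FPKM in the shGPR81 libraries, and SLCO4C1, a carrier of organic anions, 1.90, 1.96 and 1.92 FPKM in the shNT libraries and 4.33, 4.05 and 4.01 FPKM in the shGPR81 libraries. ASIC3, a sodium channel opened by extracellular acid, averaged 0.856 ± 0.293 FPKM in shNT and 1.56 ± 0.169 FPKM in shGPR81. Among the proton pump subunits, ATP6V0D2 and ATP6V1G2 were members, at 1.51 and 0.635 FPKM in shNT and 3.09 and 1.38 FPKM in shGPR81. Both are tissue-restricted forms. The general forms were far more abundant and overlapped between groups, ATP6V0D1 at 53.1 and 53.5 FPKM and ATP6V1G1 at 45.8 and 48.3 FPKM. Of the ATP6V1G2 windows, 12.2% occur in the readthrough ATP6V1G2-DDX39B on the same strand. That transcript was at 1.47 FPKM in shNT and 0.982 FPKM in shGPR81, with overlap. How reads were split between them was not tested. SLC1A1, described above, is the last of the class.

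Most of the 7 cytoskeletal and related members bind actin or microtubules. SCIN, which cuts and caps actin filaments, had 5.05, 5.68 and 4.44 FPKM in the shNT libraries and 9.99, 12.04 and 9.95 FPKM in the shGPR81 libraries. ACTA2, the actin of smooth muscle and myofibroblasts, had 2.37, 1.84 and 1.64 FPKM in the shNT libraries and 5.05, 3.97 and 3.73 FPKM in the shGPR81 libraries, and the shGPR81 1 library was the highest. The cytoplasmic actins ACTB and ACTG1 had means above 2000 FPKM in both groups, with ratios of 0.982 and 0.944, while the other muscle actins ACTA1, ACTC1 and ACTG2 were near 0. Of the 7 fibroblast markers, COL1A2, DCN, LUM and POSTN were at 0 in all libraries, COL3A1 and PDGFRA were near 0, and COL1A1 was lower in shGPR81 without overlap, at 1.06 FPKM in shNT and 0.640 FPKM in shGPR81. Their part in the ACTA2 difference was not tested. CORO2B, a coronin, and SLAIN1, a protein of growing microtubule ends, had shGPR81 means of 5.45 and 4.77 FPKM. SNCAIP, synphilin-1, a partner of alpha-synuclein, had the second highest ratio at 3.47, with 0.483, 0.414 and 0.244 FPKM in the shNT libraries and 1.39, 1.19 and 1.37 FPKM in the shGPR81 libraries. DCLK1, a kinase on microtubules, had a ratio of 1.89.

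Among the nuclear proteins, CCNA1 had the highest level, at 4.29, 3.30 and 3.87 FPKM in the shNT libraries and 7.90, 7.58 and 8.28 FPKM in the shGPR81 libraries. It encodes cyclin A1, a form known from male germ cells and leukemia, and the general cyclin A2 gene CCNA2 was at 65.2 and 65.8 FPKM with overlap. None of 32 listed cell cycle genes was a member, and the list does not hold CCNA1. NR4A2 encodes an orphan nuclear receptor and is a known target of cyclic AMP and CREB. It was at 0.741, 0.809 and 1.11 FPKM in the shNT libraries and 1.93, 1.59 and 1.34 FPKM in the shGPR81 libraries and was the single member on a list of 24 such targets, whose median log2 ratio was -0.02. Its relative NR4A1 was lower without overlap (0.787), and NR4A3 was near 0. LBH, a Wnt target and transcription cofactor, was at 1.94, 2.18 and 2.76 FPKM in the shNT libraries and 5.11, 4.92 and 4.39 FPKM in the shGPR81 libraries. HSF4, a heat shock factor of the lens, had 0.964, 0.637 and 0.422 FPKM in the shNT libraries and 1.67, 1.12 and 1.08 FPKM in the shGPR81 libraries, and 34.0% of its windows fall in another gene model. SAP25, a part of the SIN3A complex, shares 92.8% of its windows with other models. The zinc finger genes ZNF354C and ZNF69 and the histone H3 gene HIST1H3H had ratios of 1.86, 1.82 and 1.83. ZNF69 had 1.25, 0.634 and 0.549 FPKM in the shNT libraries and 1.54, 1.42 and 1.46 FPKM in the shGPR81 libraries.

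The remaining proteins were TRIML2 and KRCC1. TRIML2, a relative of the tripartite motif proteins, had 0.966, 1.04 and 0.965 FPKM in the shNT libraries and 2.90, 2.499 and 2.76 FPKM in the shGPR81 libraries. KRCC1, a lysine-rich protein of little known function, averaged 0.812 ± 0.283 FPKM in shNT and 1.89 ± 0.246 FPKM in shGPR81 (SD, n = 3).

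The 8 transcripts without a known protein of their own were less uniform. ARMCX5-GPRASP2, a readthrough transcript, had 1.25, 0 and 1.14 FPKM in the shNT libraries and 2.19, 3.34 and 2.48 FPKM in the shGPR81 libraries. The ratio of 3.34 leaned on shNT 2 and was 2.23 without that library. Of the genes it joins, ARMCX5 had a ratio of 1.02 and GPRASP2 was lower without overlap (0.584). GPRASP2 was highest in shNT 2, where the readthrough was at 0, and lowest in shGPR81 2, where the readthrough was highest. How reads were split between the readthrough and GPRASP2 was not tested, and the ratio of 3.34 carries that limit. NUDT4P2 had 2.55, 0.0181 and 3.82 FPKM in the shNT libraries and 7.97, 6.16 and 4.18 FPKM in the shGPR81 libraries. All its windows occur in NUDT4 or NUDT4B, and shNT 2 gave almost nothing. The ratio of 2.86 became 1.91 without shNT 2 and 4.75 without shNT 3. NUDT4 itself was at 4.90 FPKM in shNT and 4.60 FPKM in shGPR81, with overlap. NUDT4P1 was lower without overlap at a ratio of 0.712 (31.1 and 22.1 FPKM). Reads of these copies cannot be told apart. LOC101927701 had 1.40, 0.547 and 0.420 FPKM in the shNT libraries and 1.44, 2.12 and 3.31 FPKM in the shGPR81 libraries, and its ratio of 2.90 became 4.74 without shNT 1 and 2.25 without shGPR81 3.

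The antisense RNA FEZF1-AS1 had 0.445, 0.550 and 0.533 FPKM in the shNT libraries and 1.11, 1.15 and 1.23 FPKM in the shGPR81 libraries. FEZF1 on the opposite strand had 0.870, 1.24 and 1.11 FPKM in the shNT libraries and 2.22, 1.61 and 1.72 FPKM in the shGPR81 libraries, a ratio of 1.73 without overlap. The libraries were made with a stranded kit, but whether the quantification used strand is not given in the sources used here, so the pair is uncertain. LUCAT1, a long noncoding RNA that responds to stress, averaged 1.44 ± 0.379 FPKM in shNT and 2.90 ± 0.355 FPKM in shGPR81. The uncharacterised loci LOC101927229, LOC388692 and C20orf197 averaged 8.25, 2.43 and 1.39 FPKM in shGPR81, from 3.85, 1.22 and 0.675 FPKM in shNT. The values of LOC388692 were 1.61, 1.11 and 0.924 FPKM in the shNT libraries and 2.78, 1.79 and 2.72 FPKM in the shGPR81 libraries.

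Whole reads could be recovered for 23 members, because low FPKM values in a library are multiples of what 1 read is worth. CA8 had 14, 10 and 8 reads against 39, 39 and 35. HIST1H3H had 4, 5 and 3 reads against 6, 9 and 8, the fewest of the 23. Its ratio per depth of 1.82 has a 95% exact counting interval of 0.869 to 4.01. For SAP25 the interval was 1.18 to 4.37 around 2.22. For SLCO4C1, with 412 reads in shNT and 931 in shGPR81, it was 1.91 to 2.42. The intervals are a measure of counting precision and not a test, since the members were chosen by this ratio. They cover counting error only, and reads without molecular identifiers are not independent molecules.

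**Figure D5:**
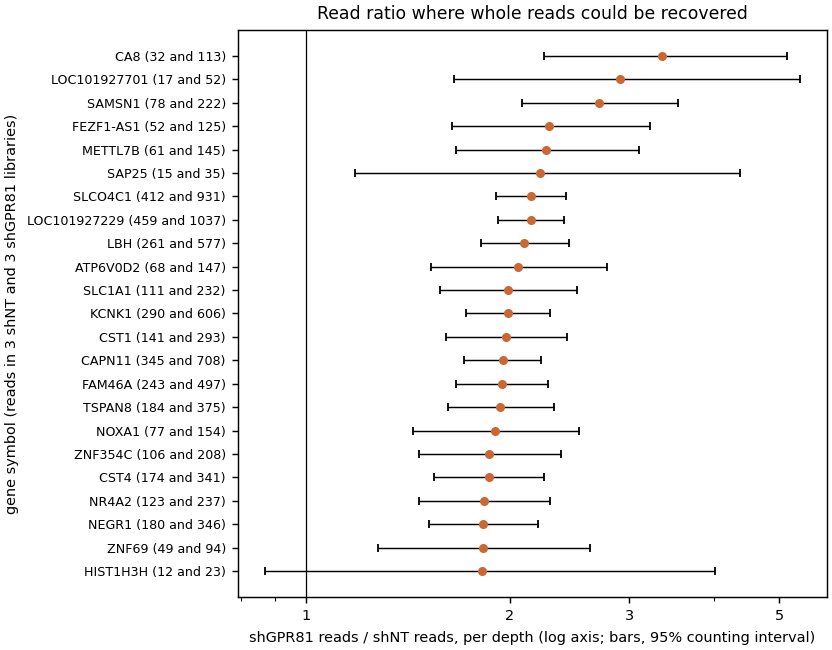
Ratio of reads per depth, shGPR81 over shNT, on a log axis with 95% exact counting intervals, for the 23 members whose whole reads could be recovered, with the summed reads of 3 shNT and 3 shGPR81 libraries beside each name. The widest interval is that of HIST1H3H, and narrow intervals belong to members with many reads, such as SLCO4C1 and LOC101927229. Since members were chosen by this ratio, their distance from 1 is no test.

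Genes close to the limits show how the set was bounded. Just inside the ratio of 1.8 lay COL12A1, ZNF69 and ASIC3, the last with 1.07, 0.980 and 0.522 FPKM in the shNT libraries and 1.72, 1.38 and 1.57 FPKM in the shGPR81 libraries. Just outside lay PRRG4 with 1.44, 1.37 and 1.20 FPKM in the shNT libraries and 2.22, 2.51 and 2.47 FPKM in the shGPR81 libraries, a ratio of 1.798, GAPLINC with 3.46, 3.71 and 3.38 FPKM in the shNT libraries and 5.52, 7.04 and 6.08 FPKM in the shGPR81 libraries, and SOCS2-AS1 with 3.56, 5.61 and 5.74 FPKM in the shNT libraries and 9.25, 8.62 and 8.42 FPKM in the shGPR81 libraries. SOCS2-AS1 overlaps the member SOCS2 on the opposite strand, and its ratio was 1.76. Just above the floor of 1 FPKM were HSF4, given above, and SAP25 with 0.462, 0.790 and 0.462 FPKM in the shNT libraries and 1.08, 1.31 and 1.42 FPKM in the shGPR81 libraries. Just below it were RGMB-AS1 with 0.557, 0.776 and 0.636 FPKM in the shNT libraries and 1.56, 1.505 and 0.977 FPKM in the shGPR81 libraries, RTBDN with 0.838, 0.556 and 0.757 FPKM in the shNT libraries and 1.34, 1.87 and 0.967 FPKM in the shGPR81 libraries, and PDE5A, given above. With the least room between the groups were LOC101927701, NUDT4P2 and LOC388692. Left out by a small overlap were LOC102724776 with 1.504, 1.17 and 2.10 FPKM in the shNT libraries and 1.97, 3.98 and 3.13 FPKM in the shGPR81 libraries, MEIG1 with 0.521, 0.509 and 1.39 FPKM in the shNT libraries and 1.30, 1.48 and 1.81 FPKM in the shGPR81 libraries, and TICAM2 with 0.782, 0.543 and 1.56 FPKM in the shNT libraries and 1.89, 1.39 and 2.84 FPKM in the shGPR81 libraries. In all, 200 symbols missed the set by the floor alone and 7 by the overlap alone.

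The same limits turned round gave 110 symbols lower in shGPR81 of the 11308 at 1 FPKM or more in every shNT library, or 0.973%. On the hand-made lists, lower genes are counted by these limits, and a gene counts as expressed at 1 FPKM or more in every library of either group. Each list holds only part of its class, so the counts are of listed symbols and not of classes. PTPRR, SLITRK4, NEGR1, PCDHGB7, CST1, CST4, CAPN11, CCNA1 and SPP1 are members that are on none of the lists. Of 35 expressed extracellular matrix genes, COL12A1 was a member and 0 were lower. Of 28 expressed proteases and inhibitors, SERPINB2 and CTSS were members and 3 were lower, and of 26 expressed receptor kinases and phosphatases EPHA4 was a member and 1 was lower. No member was among 34 expressed adhesion molecules, of which 4 were lower, or among 19 expressed antigen presentation genes, of which 2 were lower. The antigen presentation list does not hold CTSS, which is on the list of proteases. Growth factors and cytokines held 0 members and 3 lower genes of 48 expressed, interferon-stimulated genes 0 and 1 of 43, p53 targets 0 and 1 of 23, and lipid droplets and lipolysis 0 and 0 of 14. Several named exclusions of the rule are genes of such lists, so these counts of members are not counts of all genes that met the limits. The list medians of the log2 ratio ran from -0.14 for antigen presentation to 0.15 for proteases and inhibitors. Higher without overlap were 13 of 28 expressed proteases and inhibitors, 12 of 35 matrix genes and 13 of 48 growth factors and cytokines. The count was 7 of 34 for adhesion molecules, 6 of 29 for cell cycle and 3 of 18 for cyclic AMP targets. It was 5 of 43 for interferon-stimulated genes, 2 of 26 for receptor kinases, and 2 of 23 each for glycolysis and p53 targets. Antigen presentation and neuronal lists held 0 and lipid droplets 1. Over the 11329 symbols the share was 14.1%.

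By position, 65 members matched a gene in GENCODE release 44 lifted to GRCh37, of which 62 are protein coding, 2 are long noncoding RNAs and 1 is a processed pseudogene. They were scattered over the genome, with 8 on chromosome 1 and none on chromosomes 14, 17 and 22. Chromosome 13 held 4 members of 199 expressed genes, or 2.01%, and chromosome 21 held 2 of 108, or 1.85%. The share over the 11329 symbols, matched or not, was 0.618%. These counts are small, and no chromosome was compared with chance. On the whole of chromosome 20 the expressed genes had a median log2 ratio of -0.39, and CST1 and CST4 were the matched members there. That median was not split by region here. C20orf197 was among the members without a matched position. Expressed here and for promoters means at 1 FPKM or more in every shGPR81 library.

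In 4 places a pair of members lay within 1 Mb of each other (GRCh37). CST4 (chr20:23666277-23669675) and CST1 (chr20:23728199-23731905) lie on the minus strand, 58.5 kb apart with no other symbol of the table between them. PTPRR (chr12:71031853-71314518) and TSPAN8 (chr12:71518865-71835678) are 204 kb apart, again with none between them. SLAIN1 (chr13:78271822-78338377) and EDNRB (chr13:78469616-78549664) are 131 kb apart, and EDNRB-AS1 between them was near 0. SLAIN1 had 2.63, 2.05 and 2.05 FPKM in the shNT libraries and 4.59, 4.77 and 4.96 FPKM in the shGPR81 libraries. DCLK1 (chr13:36342789-36705519) and CCNA1 (chr13:37005657-37017007) are 300 kb apart with 5 symbols between them, of which SPG20 had the highest level at a ratio of 1.096 and CCDC169 a ratio of 1.12. DCLK1 had 0.586, 0.757 and 0.784 FPKM in the shNT libraries and 1.49, 1.30 and 1.23 FPKM in the shGPR81 libraries.

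Exons of 29 members overlap an exon of another gene, on the same strand in 12 and on the opposite strand in 22. On the opposite strand, FAS beside ACTA2 was at 2.99 FPKM in shNT and 3.61 FPKM in shGPR81 and PCAT7 beside FBP1 at 0.791 and 0.933 FPKM, both with overlap. NFKBIL1 beside ATP6V1G2 was more abundant than the member and lower in shGPR81 without overlap (13.96 and 11.8 FPKM). SOCS2-AS1 opposite SOCS2 was higher without overlap (4.97 FPKM in shNT and 8.76 FPKM in shGPR81), as was FEZF1 opposite FEZF1-AS1. Whether the quantification used strand is not given, so SOCS2 and SOCS2-AS1 are as uncertain a pair as FEZF1 and FEZF1-AS1.

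Promoter sequences, from 250 bases before to 50 bases after the annotated start, were taken from RefSeq on GRCh38.p14 and matched 51 members, 5 of them through a synonym. Of the members without an entry, 16 are named here: ATP6V0D2, CA8, CARD16, CST1, CST4, CTSS, FEZF1-AS1, LOC101927229, LOC101927701, LOC388692, MAP3K7CL, NEGR1, NMRK1, NR4A2, NUDT4P2 and SOCS2. The median GC content of the 51 was 57.3%, against 65.7% for 8660 promoters of expressed symbols and 58.3% for all 27305. The letters of a TATA box (TATAAA, either strand, anywhere in the window) were present in 10 of 51, or 19.6%, against 4.98% of expressed and 11.95% of all promoters. These were the promoters of AKR1C3, C20orf197, FAM46A, HIST1H3H, KCNK1, LBH, SCIN, SERPINB2, SNCAIP and TBXAS1. In FAM46A, HIST1H3H, LBH, SCIN and SERPINB2 the letters lay on the gene's own strand between -32 and -24. In the others they lay only on the opposite strand or farther from the start, so the share is not one of working TATA boxes. A GC box (GGGCGG) was in 47.1%, against 71.9% of expressed and 44.6% of all promoters. On both measures the members were nearer to all promoters than to those of expressed genes. The set lies at low levels, and no comparison with expressed genes of the same level was made.

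Examples with TATAAA letters and with GC boxes follow, each on its own strand from 5′ to 3′. SERPINB2 (chr18:63887455-63887754, plus strand) has the TATA box at -30 to -25, counted with the start as 0, and the sequence TGANTCA that AP-1 binds at -102 to -96. AKR1C3 (chr10:5048531-5048830, plus strand) has the TATAAA letters at -26 to -21 and those of a CCAAT box at -73 to -69, both on the opposite strand. TBXAS1 (chr7:139829014-139829313, plus strand) holds TATAAA at -140 to -135, again on the opposite strand at -43 to -38, and AP-1 at -96 to -90. GRB14 (chr2:164621433-164621732, minus strand) and FBP1 (chr9:94639469-94639768, minus strand) show the GC-rich kind with repeated GC boxes. Capitals mark the TATA, AP-1 and CCAAT letters in the first 3 and the GC boxes in the last 2.
SERPINB2: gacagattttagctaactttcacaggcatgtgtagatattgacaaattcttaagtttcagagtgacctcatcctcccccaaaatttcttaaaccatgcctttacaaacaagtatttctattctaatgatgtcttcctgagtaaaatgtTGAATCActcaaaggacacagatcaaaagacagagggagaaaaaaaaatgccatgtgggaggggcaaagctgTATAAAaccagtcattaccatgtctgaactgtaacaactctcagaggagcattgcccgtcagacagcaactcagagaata
AKR1C3: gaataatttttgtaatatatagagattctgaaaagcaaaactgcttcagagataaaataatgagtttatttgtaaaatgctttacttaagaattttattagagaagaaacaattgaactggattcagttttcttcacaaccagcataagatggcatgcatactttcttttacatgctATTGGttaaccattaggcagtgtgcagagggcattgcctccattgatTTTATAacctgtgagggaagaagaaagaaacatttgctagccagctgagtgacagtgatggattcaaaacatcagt
TBXAS1: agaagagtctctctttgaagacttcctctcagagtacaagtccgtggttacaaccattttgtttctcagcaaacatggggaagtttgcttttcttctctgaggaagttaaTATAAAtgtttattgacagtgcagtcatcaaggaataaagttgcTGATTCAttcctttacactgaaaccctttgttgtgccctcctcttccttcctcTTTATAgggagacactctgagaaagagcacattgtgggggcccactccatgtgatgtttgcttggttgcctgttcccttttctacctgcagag
GRB14: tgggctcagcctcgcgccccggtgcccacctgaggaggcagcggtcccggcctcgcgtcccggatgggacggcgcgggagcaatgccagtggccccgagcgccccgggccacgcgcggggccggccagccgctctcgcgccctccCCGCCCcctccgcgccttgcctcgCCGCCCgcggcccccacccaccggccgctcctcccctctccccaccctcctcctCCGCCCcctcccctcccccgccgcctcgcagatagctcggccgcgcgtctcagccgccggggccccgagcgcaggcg
FBP1: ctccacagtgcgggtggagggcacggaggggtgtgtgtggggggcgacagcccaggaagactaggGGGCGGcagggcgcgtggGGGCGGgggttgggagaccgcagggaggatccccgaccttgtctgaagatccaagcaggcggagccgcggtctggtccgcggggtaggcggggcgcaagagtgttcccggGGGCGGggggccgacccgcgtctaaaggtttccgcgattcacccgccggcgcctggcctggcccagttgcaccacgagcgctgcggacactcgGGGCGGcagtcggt
GC content runs from 33.7% in the AKR1C3 promoter to 81.7% in that of GRB14, the lowest and highest of the 51.

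Other motifs were searched on both strands in the same way, with the shares of expressed and of all promoters given in that order. The AP-1 sequence was in 5 promoters (9.80%), those of DCLK1, LUCAT1, SERPINB2, TBXAS1 and TRIML2, against 4.45% of expressed and 7.76% of all promoters. The cyclic AMP response element (TGACGTCA) was in 0 of 51, against 3.49% and 1.98%, and the ETS site (CCGGAAG) only in FAM46A (1.96%), against 20.7% and 10.7%. CCAAT was in 33.3%, against 36.96% and 35.7%. The E-box core CACGTG was in 1.96% (10.5% and 7.43%), and the hypoxia core ACGTG, which lies inside it, in 15.7% (27.7% and 21.6%). The antioxidant element TGACNNNGC was in 9.80% (15.3% and 13.6%) and the interferon element GAAANNGAA in 9.80% (6.28% and 8.29%). The NF-kB site, searched by name, was in 5.88% (12.9% and 10.8%), while the SMAD box GTCTAGAC (0.139% and 0.201%) and the CArG box, also searched by name (1.04% and 1.29%), were in 0 of 51. A match says only that the letters are in this window, and a missing match says nothing about the factor.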

How the data were processed

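Polyadenylated RNA of 3 shNT and 3 shGPR81 libraries of MDA-MB-231 cells was measured. Per the labels, the authors mapped reads with TopHat2 2.0.13, Bowtie2 2.2.3 and SAMtools 0.1.19 and normalized with Cuffnorm 2.2.1. The study's methods name the human genome hg19, while the labels name mm10. The cells are human and the table holds human symbols. The annotation is not given in the sources used here. The deposited table holds 1 FPKM value per symbol and library, and all 6 of its value columns were used. MIR6723 takes 28.1% to 36.2% of the FPKM sums.

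Members were found by the stated limits on the deposited FPKM values. Because the limits use the only comparison of the study, no test was run on it. The members and the gene lists were chosen with earlier results of these data known, and the grouping by function and the family tables were written after the members were known. Results that need certain genes are not reported here, among them 3 of the 70 members. Named genes were every other member, by value or count, with per-library values for the 12 highest ratios, the 12 highest levels, the genes next to each limit, neighbouring members and members on a list, and non-members of the same family.

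Whole reads were sought per symbol within a tolerance of 0.0001 and up to 400 reads, which succeeded for 5314 of the 15931 symbols not at 0 in 3 or more libraries. The recovery was tested on simulated data. The simulation left out counts as high as the highest recovered here and counts that share a common divisor, so these cases were not tested. Sequence sharing was counted over 75-base windows of the longest transcript in GENCODE 44 on GRCh37. Analyses used Python 3.11.15, pandas 2.3.3, numpy 2.4.6, SciPy 1.17.1 and matplotlib 3.10.9. Alternatives changed each limit, the kind of mean, a pseudocount, the scale and the libraries used.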

Additional observations from a re-analysis of the deposited data

How the results depend on the processing

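The number of members depends on the limits by construction. With the ratio at 1.5, 2 or 3 it was 163, 43 or 4. With the floor at 0.5, 2 or 5 FPKM it was 110, 35 or 17, and with a pseudocount of 1 FPKM in the ratio it was 17. A pseudocount of 0.1 FPKM gave 59, geometric means 62, medians 71 (64 of the members among them) and median scaling 70. Leaving out 1 library gave 73 to 84, which held between 59 and 67 of the 70 members. In all 6 such settings 48 members kept a ratio of at least 1.8, and 22 fell below it in at least 1. The ratios of NUDT4P2 and LOC101927701 moved by over 1.5 times. Of 630 member ratios recomputed under alternatives, 591 moved by less than the spread between replicates, 39 by more (all with the pseudocount of 1 FPKM), and 0 reversed. The lack of reversals is no result. The limit on overlap fixed it in advance for left-out libraries and pseudocounts, and median scaling changed the values very little. No paired analysis was run, since the members were chosen on the only comparison and no test was made of it. Depth limits the low members, of which 29 averaged below 2 FPKM in shGPR81.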
